A study of Mus musculus with 2 samples.

Results

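The data cover 10 receptor genes of natural killer (NK) cells in innate lymphoid cells (ILCs) of the mouse gut: Ncr1, Klrk1, Klrd1, Klrc1, Klrc2, Klre1, Klrb1a, Klrb1c, Klrb1f and Klrg1. They were taken as a named list, and all 10 were among the 17238 genes of the count table. The cells came from fed C57BL/6 mice aged 8 weeks and had been sorted as IL7ra+ ILCs. The small intestine gave 1 library of 5490 cells and the colon 1 library of 7549 cells, each from a pool of 8 mice and made with 10x Chromium 3′ v2 chemistry. Within each library, cells were grouped by 4 marker transcripts, counted as unique molecular identifiers (UMIs). Il22-high cells had at least 5 UMIs of Il22, the cytokine of group 3 ILCs (ILC3). Gata3-positive, Tbx21-positive and Cd3e-positive cells had at least 1 UMI of the transcription factor of group 2 ILCs (ILC2), of the transcription factor T-bet of ILC1 and NK cells, or of the T cell receptor complex gene Cd3e. The groups overlap, and cells with none of the 4 markers formed a further group. Of 406 Tbx21-positive cells of the small intestine, 22 were positive for Cd3e and no other marker besides, against 61 of 293 in the colon.

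NK receptors sit on the surface of a lymphocyte and pass on activating or inhibitory signals when they meet their ligands on other cells. Ncr1 encodes NKp46, an immunoglobulin-type activating receptor found on NK cells, ILC1 and the NCR+ subset of gut ILC3. The Klr genes encode lectin-like receptors of the NK gene complex, in which CD94 (Klrd1) pairs with NKG2 chains, NKG2D (Klrk1) senses stress ligands, the NKR-P1 receptors (the Klrb1 genes) bind Clr proteins, and Klrg1 is an inhibitory receptor for cadherins that is also known from ILC2.

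Cells accounted for 15080081 of the 19745585 UMIs of the small intestine library and for 22332691 of the 25548284 UMIs of the colon library. Median depth was 2579 UMIs per small intestine cell and 2600 UMIs per colon cell. Levels are CPM, the UMIs of a gene summed over a set of cells and scaled to the total UMIs of those cells. In such sums fewer expressing cells and less RNA per cell cannot be told apart. With 1 library per tissue no test between tissues is possible, and the 95% intervals given in parentheses cover counting error only. A gene was called apart between cell sets where it had at least 20 UMIs over both and differed at least 2-fold. Il7r, the gene of the sorted receptor, had a UMI in 83.7% of small intestine and 67.5% of colon cells. A UMI of the ILC2 receptor gene Il1rl1 was present in 2.11% of cells of the small intestine, against 18.4% in the colon. Of the 10 T cell markers all were detected in both libraries, with summed levels of 1845 CPM in the small intestine, against 2260 CPM in the colon. T cell transcripts were thus present among the sorted cells. Eomes, the NK cell factor, was at 0.265 CPM in the small intestine, against 0.627 CPM in the colon, and at 0 in the Tbx21-positive cells of both libraries.

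Ncr1 lies on chromosome 7 (chr7:4337724-4345164, plus strand, mm10), and the other 9 genes lie on chromosome 6. Klrg1 (chr6:122270596-122282882, minus strand) stands apart from the rest of the Klr genes. The NKG2 group is packed side by side: Klre1 at chr6:129577905-129585827 and Klrd1 at chr6:129591782-129598775 on the plus strand, then Klrk1 at chr6:129610323-129623864, Klrc2 at chr6:129647496-129660689 and Klrc1 at chr6:129666015-129678973 on the minus strand. The Klrb1 genes lie before them, with Klrb1a at chr6:128609227-128623533 and Klrb1c at chr6:128778485-128789215 on the minus strand and Klrb1f at chr6:129045901-129057464 on the plus strand. In the last 500 transcript bases, 37.5% of the 60-base windows of Klrc1 and 17.4% for Klrc2 also occur in another Klrc gene. For Klrb1c 16.2% and for Klrb1a 6.59% also occur in other Klrb1 genes or in the annotated gene Gm44511. Values of these 4 genes are therefore uncertain as to the copy counted, and no such window was found for the other 6. Klrb1c also overlaps the annotated gene Gm44511 on the same strand, and Klrb1f overlaps the antisense gene Gm44000, which had 34 UMIs.

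Because 9 of the 10 genes were called higher in Tbx21-positive than in Tbx21-negative cells of the colon, against 4.44% of all genes, the sequence just before their start sites is shown for 4 of them. RefSeq promoters (GRCm38.p6, 250 bases before the start) were found for 8 of the 10 genes, with none listed for Klrd1 and Klrg1. Capitals mark the core letters bound by RUNX factors (ACCACA, or TGTGGT on the other strand) and by T-box factors (TCACAC or GTGTGA), which do not overlap here. Ncr1 is shown for holding both, Klrk1 and Klrc1 for the RUNX letters in the activating and inhibitory chains, and Klrb1f as the gene with neither. Their windows are chr7:4337474-4337723 (plus strand) for Ncr1, chr6:129623865-129624114 (minus strand) for Klrk1, chr6:129678974-129679223 (minus strand) for Klrc1 and chr6:129045651-129045900 (plus strand) for Klrb1f.
Ncr1: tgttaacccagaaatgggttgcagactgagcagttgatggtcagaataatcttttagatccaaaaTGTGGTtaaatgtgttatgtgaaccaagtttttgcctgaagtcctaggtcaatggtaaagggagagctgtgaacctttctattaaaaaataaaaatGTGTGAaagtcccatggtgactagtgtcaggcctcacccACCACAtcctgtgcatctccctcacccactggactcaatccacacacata
Klrk1: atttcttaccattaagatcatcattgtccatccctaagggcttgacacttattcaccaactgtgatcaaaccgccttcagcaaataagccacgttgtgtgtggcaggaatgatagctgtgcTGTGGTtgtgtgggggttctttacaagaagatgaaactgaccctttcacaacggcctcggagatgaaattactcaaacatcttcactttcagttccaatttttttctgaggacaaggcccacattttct
Klrc1: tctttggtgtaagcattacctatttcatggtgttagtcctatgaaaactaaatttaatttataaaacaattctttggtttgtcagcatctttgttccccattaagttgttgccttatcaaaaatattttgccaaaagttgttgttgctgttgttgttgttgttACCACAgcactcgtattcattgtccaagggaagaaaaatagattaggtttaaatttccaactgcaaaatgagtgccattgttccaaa
Klrb1f: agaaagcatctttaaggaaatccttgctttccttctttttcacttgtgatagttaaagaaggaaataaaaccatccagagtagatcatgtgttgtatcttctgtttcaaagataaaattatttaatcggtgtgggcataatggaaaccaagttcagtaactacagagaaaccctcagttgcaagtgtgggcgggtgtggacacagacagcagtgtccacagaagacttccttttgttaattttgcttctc
The RUNX letters were found in 7 of the 8 genes (all but Klrb1f), against 15.9% of all 27025 genes with a listed promoter. The T-box letters were found in 2 of the 8, Ncr1 and Klre1, against 13.9% of genes. The letters AGGAAG of ETS factors (either strand) were found in 4 of the 8 against 32.3%, and AGATAA of GATA factors in 1 of the 8, Klrb1f, against 11.4%. These 4 motifs were searched with the receptor levels already known, and a match is a description of the letters and not of binding. The promoters of Klrb1a and Klrb1c were 64.8% identical when aligned, whereas every other pair lay between 43.8% and 54.1%. These shares count gaps as mismatches, and for Klrb1a and Klrb1c 188 of 290 aligned columns were identical and 80 were gaps.

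Ncr1, the activating receptor NKp46, was higher in the small intestine in each marker group. It had 2998 UMIs or 199 CPM (192 to 206) in the small intestine, against 1137 UMIs or 50.9 CPM (48.0 to 54.0) in the colon, a ratio of 3.90 (3.65 to 4.18). Among Il22-high cells it stood at 203 CPM in the small intestine, against 63.3 CPM in the colon (ratio 3.20, 2.80 to 3.67), and among Gata3-positive cells at 140 and 27.8 CPM in the same order (5.04, 4.44 to 5.73). The 7 ILC3 markers summed to 4986 CPM in the Gata3-positive cells of the small intestine, against 2675 CPM in the colon, and the 7 ILC2 markers to 2374 and 2554 CPM. In cells positive for Gata3 alone Ncr1 had 105 CPM (94.0 to 116) and 21.6 CPM (18.8 to 24.6), beside 2417 and 1517 CPM of the ILC3 markers, whose part in the result was not tested. Tbx21-positive cells had the highest levels, 430 CPM in the small intestine, against 203 CPM in the colon (2.12, 1.80 to 2.51). In cells positive for Tbx21 and no other marker the levels were 500 CPM (440 to 566) and 408 CPM (338 to 488), with overlapping intervals, so the 2-fold call in the Tbx21-positive group did not hold there, and it held under 4 of 9 alternative settings. Cd3e-positive cells had the lowest levels, 40.4 CPM in the small intestine, against 14.9 CPM in the colon. Free RNA, measured in barcodes of 10 to 50 UMIs, accounts for an estimated 8.57 CPM of Ncr1 in small intestine cells and 3.64 CPM in colon cells. In colon cells positive for Cd3e alone, the set taken here to lack Ncr1 most, 0.239% of 836 cells had an Ncr1 UMI, at a median of 2236 UMIs per cell. Shares of cells are given after thinning every cell to 1000 UMIs, which left out 0 cells; without thinning that set had 1.08%. Over all cells, 15.3% (14.4 to 16.3) of small intestine and 4.77% (4.30 to 5.27) of colon cells had an Ncr1 UMI, or 29.2% and 8.81% without thinning.

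**Figure D1:**
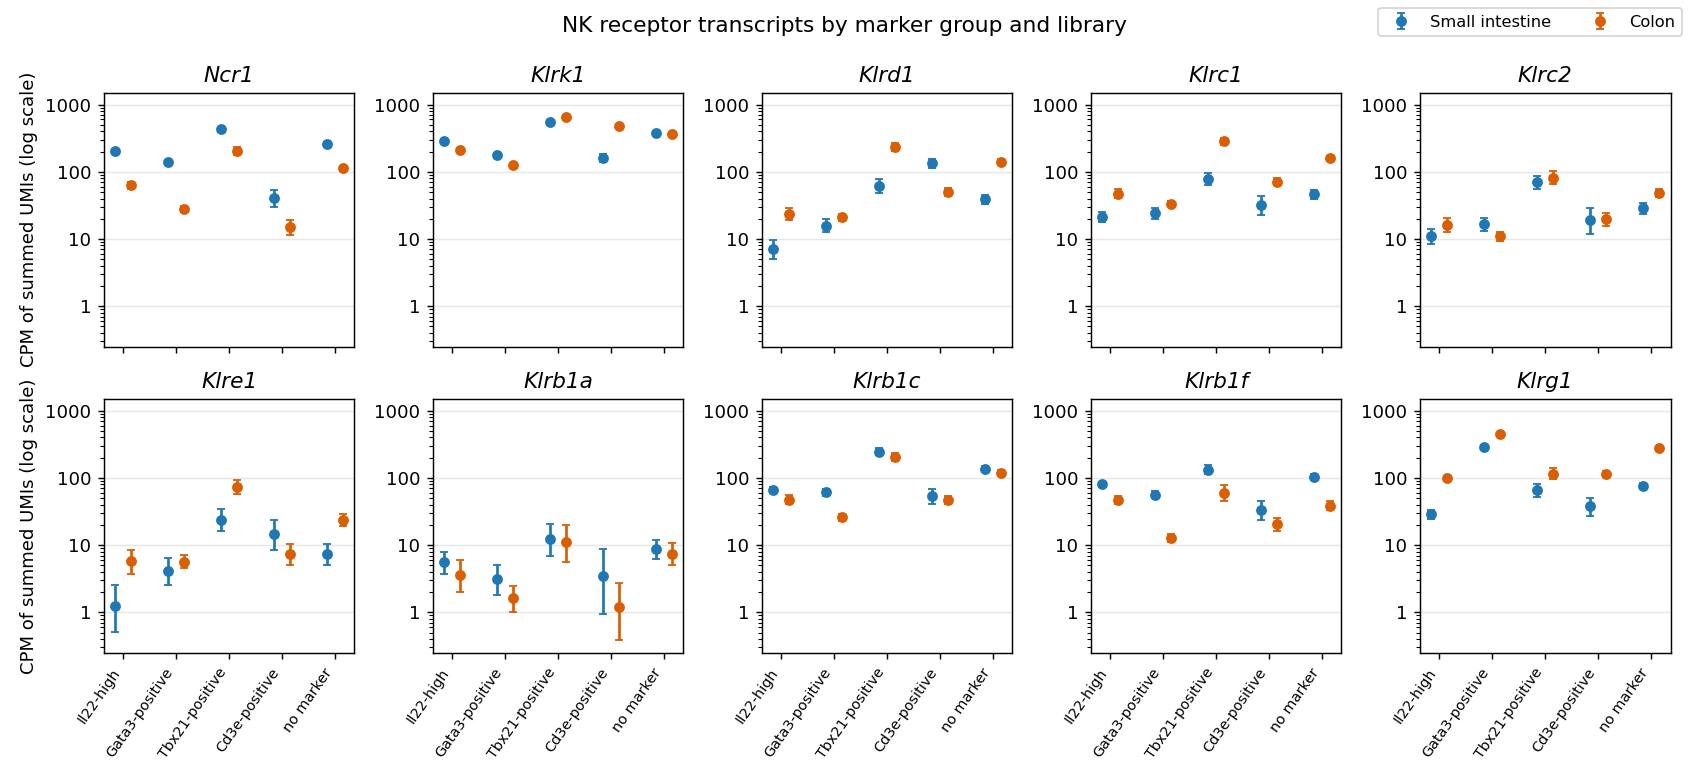
Level of each NK receptor gene (CPM of summed UMIs, log axis) in the 5 cell groups, with the small intestine in blue left of the colon in orange; bars are 95% Poisson intervals that cover counting error, with 1 library per tissue. Tbx21-positive cells hold the highest point of Ncr1 (430 CPM, small intestine) and of Klrd1 (235 CPM, colon), while Klrg1 peaks in Gata3-positive cells (450 CPM, colon).

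Klrk1 encodes NKG2D, the activating receptor for stress-induced ligands, and was the most abundant of the 10 in the small intestine. It had 290 CPM (282 to 299) in the small intestine, against 243 CPM (237 to 250) in the colon, a ratio of 1.19 that was under 2-fold. Tbx21-positive cells had 542 CPM in the small intestine, against 658 CPM in the colon, and Il22-high cells 289 and 210 CPM. The 10 T cell markers summed to 1843 CPM in Tbx21-positive cells of the small intestine, against 2971 CPM in the colon. Their part in the result was not tested. Klrk1 was less than 2-fold apart between the tissues in the Il22-high, Gata3-positive and Tbx21-positive groups. Cd3e-positive cells were the exception, with 162 CPM (189 UMIs) in the small intestine, against 485 CPM (2047 UMIs) in the colon, 2.99 times lower in the small intestine (ratio 0.334, 0.287 to 0.388). A split of these cells by Trdc, the constant chain of the gamma delta T cell receptor, was made after these values had been seen. Of the Cd3e-positive cells, 309 of the small intestine and 1092 of the colon had a Trdc UMI. Klrk1 stood at 158 CPM (132 to 188) in the small intestine, against 563 CPM (537 to 589) in the colon with Trdc, and at 172 CPM (131 to 221) and 210 CPM (181 to 241) without it. The tissue difference in Klrk1 was thus seen in the cells with Trdc, and the intervals overlapped in those without. Colon cells positive for Cd3e alone had Klrk1 in 38.9% after thinning, close to the 44.8% of small intestine cells positive for Tbx21 alone, whereas small intestine cells positive for Cd3e alone had it in 14.6%.

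CD94 with an NKG2 chain recognises the nonclassical class I molecule Qa-1, and its genes did not share 1 direction between the tissues. Klrd1, the CD94 chain shared by the NKG2 heterodimers, had 427 UMIs or 28.3 CPM (25.7 to 31.1) in the small intestine, against 1207 UMIs or 54.0 CPM (51.0 to 57.2) in the colon. In Tbx21-positive cells it had 62.1 CPM (75 UMIs) in the small intestine, against 235 CPM (231 UMIs) in the colon, a ratio of 0.264 (0.200 to 0.344). The gap was wider in cells positive for Tbx21 alone, 60.2 CPM (40.6 to 86.0) in the small intestine, against 466 CPM (391 to 551) in the colon. The 6 B and plasma cell markers summed to 313 CPM in these small intestine cells, against 30897 CPM in these colon cells. A single colon cell held 8990 of those UMIs, and without cells of 50 or more such UMIs the sums were 313 and 98.0 CPM and Klrd1 stood at 60.2 and 494 CPM (414 to 584). In Il22-high cells Klrd1 was at 7.15 CPM in the small intestine, against 23.8 CPM in the colon (0.300, 0.202 to 0.437). Colon Il22-high cells were deeper, with a median of 3067 UMIs against 2538 in the small intestine, and 13.5% of them, against 6.80% in the small intestine, were among the cells with the highest doublet scores. Without those cells the log2 ratio of Klrd1 was -2.52 against -1.74 with them, so the difference was as large without them.

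Cd3e-positive cells showed the opposite order for Klrd1, with 133 CPM (155 UMIs) in the small intestine, against 50.5 CPM (213 UMIs) in the colon, a ratio of 2.64 (2.13 to 3.26). Among those with Trdc the levels were 141 CPM (116 to 169) in the small intestine, against 50.4 CPM (43.0 to 58.7) in the colon. Without Trdc they were 116 CPM (82.9 to 157) and 50.8 CPM (37.3 to 67.6). The order was thus the same with and without Trdc, and in neither case did the intervals overlap. Klrd1 and Klrk1 thus differed between the tissues in opposite directions in Cd3e-positive cells. Gzma, a granzyme gene, was also high in the small intestine Cd3e-positive cells, at 752 CPM against 3.56 CPM in the colon, and its part in the result was not tested.

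Klrc1 encodes the inhibitory chain NKG2A and Klrc2 the activating chain NKG2C, and the balance of their transcripts differed between the tissues. Klrc1 had 31.8 CPM (29.0 to 34.8) in the small intestine, against 70.0 CPM (66.6 to 73.6) in the colon (ratio 0.455), whereas Klrc2 had 21.2 CPM (19.0 to 23.7) and 21.6 CPM (19.7 to 23.6). The small intestine held 480 Klrc1 and 320 Klrc2 UMIs, with a 95% interval of 1.30 to 1.73 Klrc1 UMIs per Klrc2 UMI, and the colon 1564 and 482, a balance of 3.24 (2.93 to 3.60). In Tbx21-positive cells this balance was 1.13 (0.834 to 1.54) in the small intestine, against 3.49 (2.71 to 4.53) in the colon. The colon value was the higher in each of the 4 marker groups and in cells with no marker, although the intervals overlapped in Il22-high and in Cd3e-positive cells. This ratio was computed after the levels had been seen, and part of the sequence of Klrc1 and Klrc2 is shared, as given above. Tbx21-positive cells had 78.6 CPM of Klrc1 in the small intestine, against 284 CPM in the colon (0.277, 0.217 to 0.350).

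Klre1, a lectin-like receptor that pairs with the Klri chains, was rare. It had 85 UMIs or 5.64 CPM (4.50 to 6.97) in the small intestine, against 243 UMIs or 10.9 CPM (9.56 to 12.3) in the colon. Tbx21-positive cells had 24.0 CPM in the small intestine, against 74.4 CPM in the colon (0.323, 0.202 to 0.502). In Il22-high cells it rested on 7 UMIs in the small intestine, 1.25 CPM against an estimated 0.265 CPM of free RNA, and on 24 UMIs in the colon, 5.78 CPM against 0.861 CPM.

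Of the Klrb1 genes, Klrb1f was called higher in the small intestine over all cells, and Klrb1a and Klrb1c were under 2-fold apart. Klrb1c, which encodes the NK1.1 antigen of C57BL/6 mice, had 93.1 CPM (88.3 to 98.1) in the small intestine, against 54.9 CPM (51.8 to 58.0) in the colon. In Tbx21-positive cells Klrb1c stood at 245 CPM in the small intestine, against 208 CPM in the colon (1.18, 0.983 to 1.42), not apart at this depth. In Gata3-positive cells it stood at 61.0 and 25.8 CPM in the same order (2.37, 2.02 to 2.77). Klrb1f, the NKR-P1F receptor, had 78.4 CPM (74.0 to 83.0) in the small intestine, against 24.2 CPM (22.2 to 26.3) in the colon, a ratio of 3.24 (2.93 to 3.60). Its tissue difference was 4.38-fold in Gata3-positive cells and 1.72-fold in Il22-high cells. Klrb1a, the NKR-P1A receptor, had 92 UMIs in the small intestine, against 69 in the colon, 6.10 CPM (4.92 to 7.48) and 3.09 CPM (2.40 to 3.91). In Tbx21-positive cells it rested on 15 UMIs in the small intestine, against 11 in the colon, too few to order the tissues.

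Klrg1, the inhibitory receptor of the cadherins, was highest in Gata3-positive cells, unlike the other 9 genes. It had 1958 UMIs or 130 CPM (124 to 136) in the small intestine, against 7411 UMIs or 332 CPM (324 to 339) in the colon (ratio 0.391, 0.372 to 0.411). The tissues were nearer in Gata3-positive cells, with 293 CPM in the small intestine, against 450 CPM in the colon (0.652, 0.615 to 0.690), under 2-fold. Gata3-positive cells were 29.9% of the small intestine library and 55.9% of the colon library. In Il22-high cells Klrg1 stood at 28.8 CPM in the small intestine, against 98.2 CPM in the colon, beside an estimated 5.22 and 18.1 CPM of free RNA. Among cells positive for Gata3 alone, 25.3% had a Klrg1 UMI in the small intestine, against 40.2% in the colon, or 53.2% and 71.1% without thinning. In cells positive for Tbx21 alone the thinned shares were 3.28% and 5.50%.

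Set side by side between tissues, 2 of the 10 genes were called higher in the small intestine over all cells (Ncr1 and Klrb1f) and 2 lower (Klrc1 and Klrg1). Of all 11962 genes counted, 8.92% were called higher and 5.42% lower, and the median log2 ratio was 0.12 for the 10 genes and 0.20 for all genes. In Il22-high cells 1 was higher and 4 were lower (Klrd1, Klrc1, Klre1 and Klrg1), where 7.85% and 4.88% of all genes were called. In Gata3-positive cells 3 were higher (Ncr1, Klrb1c and Klrb1f) and 0 lower, with 7.42% of genes called higher and 4.40% lower. In Tbx21-positive cells 2 were higher (Ncr1 and Klrb1f) and 3 lower (Klrd1, Klrc1 and Klre1), with 10.1% and 3.51% of genes called. The Klrb1f call there, a log2 ratio of 1.14, held under 4 of 9 alternative settings, with a lowest value of 0.21. In Cd3e-positive cells 2 were higher (Ncr1 and Klrd1), 3 were lower (Klrc1, Klrk1 and Klrg1) and Klrb1a had too few UMIs, with 5.12% and 4.32% of genes called. Ncr1 was called higher and Klrd1 called lower in both the Il22-high and the Tbx21-positive cells.

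**Figure D2:**
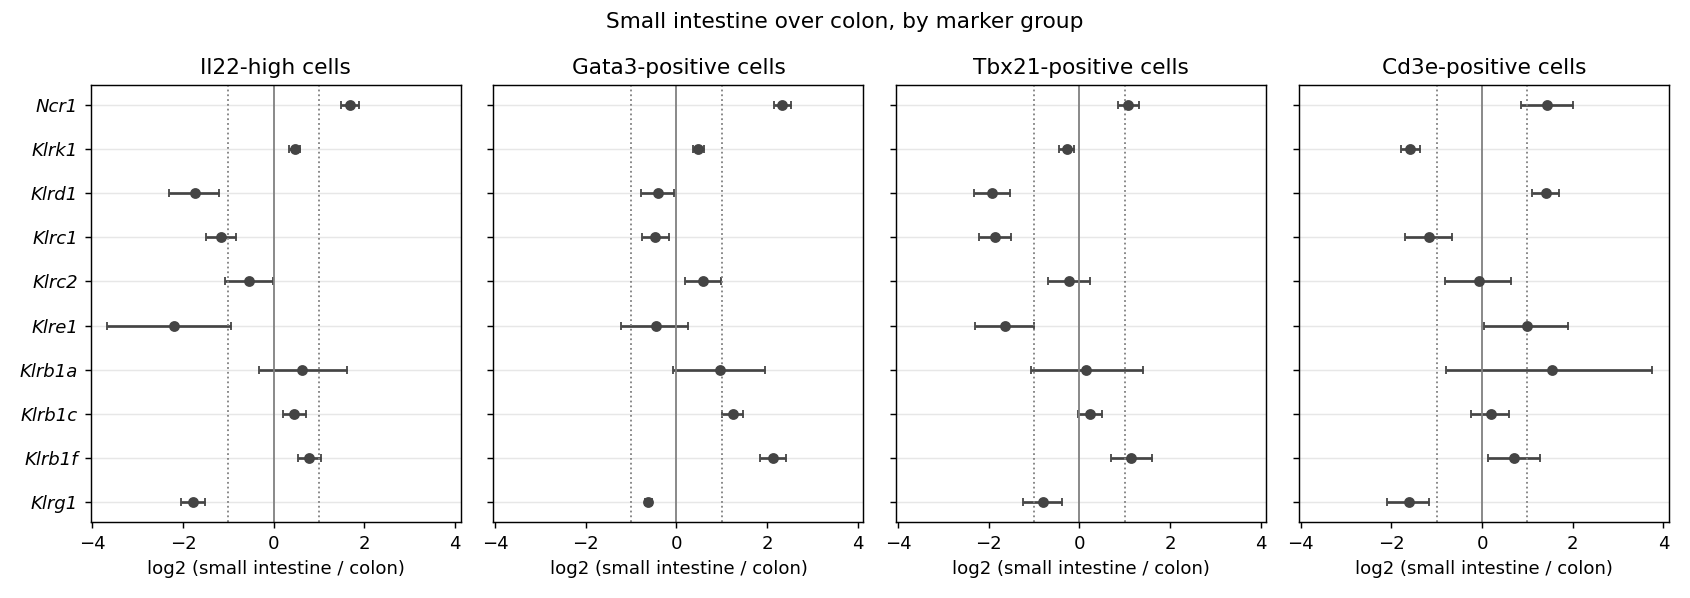
Ratio of the small intestine over the colon (log2) for each gene in the 4 marker groups; points are ratios of CPM, bars 95% counting intervals, dotted lines 2-fold. Ncr1 lies above 1 on the log2 scale in all 4 groups, and Klrd1 lies at -1.92 in Tbx21-positive and at 1.40 in Cd3e-positive cells.

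Within each library, Tbx21-positive cells were set against Tbx21-negative cells. In the small intestine 8 of the 10 genes were higher in Tbx21-positive cells, against 2.79% of all genes, and 1 was lower (Klrg1), against 8.19%. In the colon 9 were higher, against 4.44% of all genes, and Klrg1 was lower, against 9.92%. The median log2 ratio of the 10 genes was 1.28 in the small intestine, against 2.12 in the colon, with medians over all genes of 0.04 and -0.02. Klre1 differed the most, with 24.0 CPM in Tbx21-positive and 4.04 CPM in Tbx21-negative cells of the small intestine, 5.95-fold (3.66 to 9.47), and 74.4 against 7.96 CPM in the colon, 9.34-fold (7.0 to 12.4). Klrk1 had 542 CPM in Tbx21-positive and 268 CPM in Tbx21-negative cells of the small intestine (2.02, 1.86 to 2.20), and 658 against 224 CPM in the colon (2.94, 2.70 to 3.19). The gene not called in the small intestine was Klrb1f, at 132 CPM in Tbx21-positive and 73.7 CPM in Tbx21-negative cells (1.80, 1.51 to 2.12). Klrg1 had 66.2 CPM in Tbx21-positive and 135 CPM in Tbx21-negative cells of the small intestine, and 116 against 342 CPM in the colon.

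Gata3-positive cells showed the opposite order for Klrg1 and, in the colon, for the other 9 genes. Klrg1 was higher in them than in Gata3-negative cells, 293 against 47.0 CPM in the small intestine, 6.24-fold (5.62 to 6.93), and 450 against 150 CPM in the colon, 3.0-fold (2.82 to 3.18). All 9 other genes were called lower in Gata3-positive cells of the colon, against 6.40% of all genes, while 2.90% of genes were called higher. In the small intestine 2 were called lower (Klrd1 and Klrb1a), against 3.85% of genes, with 2.75% called higher. The other 7 lay below 1 but under 2-fold there, from 0.502 for Klrk1 to 0.703 for Klrc2.

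Il22-high cells differed from Il22-low cells in part of the receptors. Ncr1 and Klrk1 were not apart from Il22-low cells in the small intestine, with 203 CPM in Il22-high and 197 CPM in Il22-low cells for Ncr1 (1.03, 0.956 to 1.11) and 289 against 291 CPM for Klrk1. Called lower there were Klrd1, Klrc2, Klre1 and Klrg1, 4 of the 10 against 3.73% of all genes, and 0 were higher against 2.62%. Klrd1 had 7.15 CPM in Il22-high and 40.8 CPM in Il22-low cells of the small intestine (0.175, 0.123 to 0.243). In the colon Klrd1, Klre1 and Klrg1 were called lower in Il22-high cells, against 7.15% of genes, and Klrb1f higher, against 8.49%, at 46.7 CPM in Il22-high and 19.0 CPM in Il22-low cells (2.45, 2.05 to 2.93).

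Cd3e-positive cells had less Ncr1 and less Klrg1 than Cd3e-negative cells in both libraries. Ncr1 stood at 40.4 CPM in Cd3e-positive and 212 CPM in Cd3e-negative cells of the small intestine, and at 14.9 against 59.3 CPM in the colon. In the small intestine Klrd1 and Klre1 were called higher in Cd3e-positive cells, against 3.93% of genes, and 3 were called lower (Ncr1, Klrg1 and Klrb1f), against 11.6%. In the colon Klrk1 was the gene called higher, against 3.79% of genes, and Ncr1, Klrg1 and Klrb1a were lower, against 5.86%. The Klrb1a call there rested on 5 UMIs in Cd3e-positive and 64 in Cd3e-negative cells (0.336, 0.105 to 0.825). Klrd1 had 133 CPM in Cd3e-positive and 19.5 CPM in Cd3e-negative cells of the small intestine, 6.81-fold (5.56 to 8.33), but 50.5 against 54.9 CPM in the colon.

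**Figure D3:**
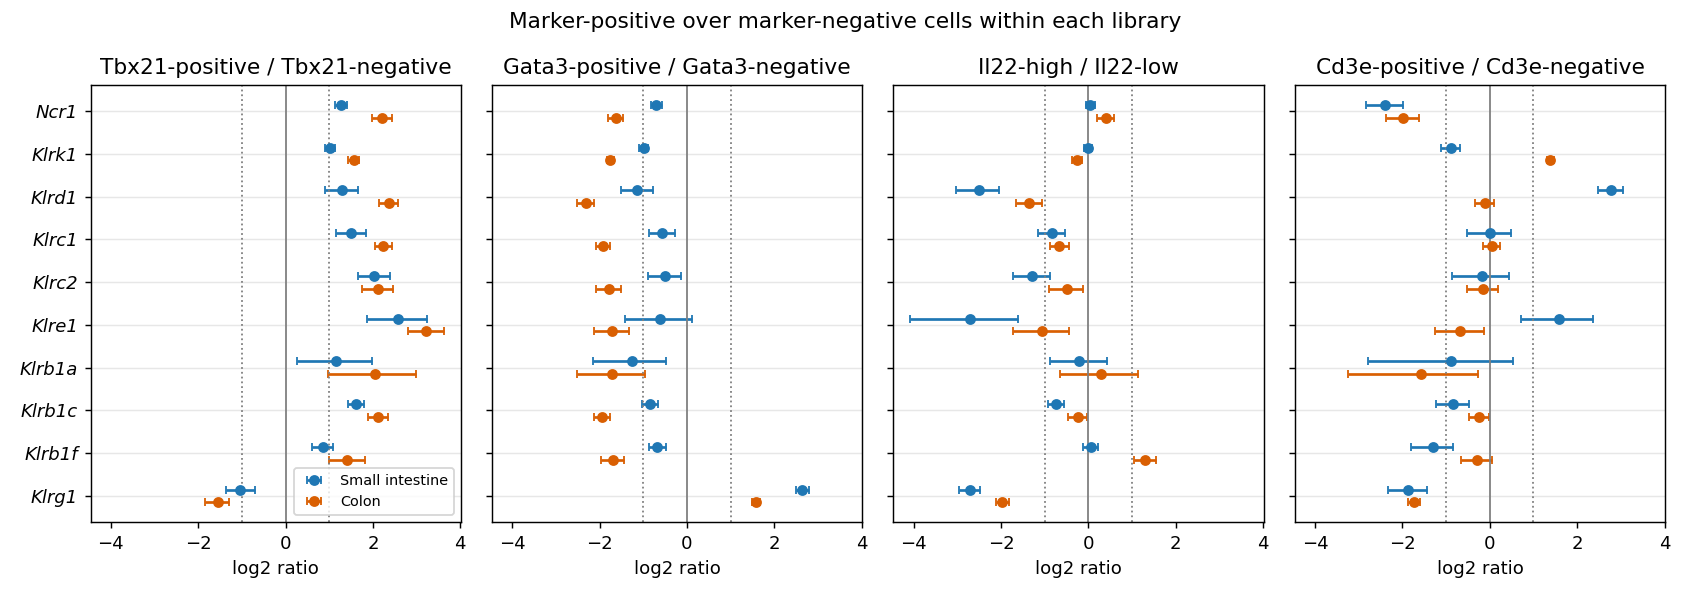
Ratio of marker-positive over marker-negative cells (log2) within the small intestine (blue) and the colon (orange) for the 4 markers; bars are 95% counting intervals and dotted lines mark 2-fold. In the Tbx21 panel 9 genes lie to the right in both libraries and Klrg1 to the left (-1.03 and -1.56), and in the Gata3 panel Klrg1 alone lies to the right (2.64 and 1.58).

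Co-detection in single cells was compared between cells with an Ncr1 UMI (840 in the small intestine, 360 in the colon, after thinning) and cells with none (4650 and 7189). In the small intestine 7 of the other 9 genes were at least 2-fold more frequent in Ncr1-positive cells, against 2.07% of 9425 genes, and Klrg1 was less frequent, against 6.39%. Of the 7, Klre1 rested on 11 Ncr1-positive and 10 Ncr1-negative cells. Klrb1a rested on 10 and 18 cells, with overlapping intervals (0.572% to 2.18% and 0.230% to 0.611%). In the colon 8 were more frequent, against 6.32% of 9672 genes, and Klrg1 was less frequent, against 13.9%. Klrk1 was in 39.0% (35.7 to 42.4) of Ncr1-positive and 19.0% (17.8 to 20.1) of Ncr1-negative cells of the small intestine, and in 50.3% (45.0 to 55.6) and 15.9% (15.0 to 16.7) in the colon. Klrd1 was in 3.57% (2.42 to 5.06) of Ncr1-positive and 1.51% (1.18 to 1.90) of Ncr1-negative cells of the small intestine, against 23.3% (19.1 to 28.1) and 2.80% (2.43 to 3.20) in the colon. Klrd1 was more frequent in Ncr1-positive cells of the colon than in those of the small intestine, with intervals that did not overlap. Klrc1 showed the same order, in 6.07% of Ncr1-positive cells of the small intestine and 26.9% of those of the colon. Klrb1c was in 17.7% of Ncr1-positive and 5.91% of Ncr1-negative cells of the small intestine, and in 30.3% and 3.80% in the colon.

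The makeup of the Ncr1-positive cells differed between the libraries. Of them 34.5% of small intestine and 20.3% of colon cells were Il22-high, 15.8% and 16.1% were Tbx21-positive, and 40.1% and 44.7% had none of the 4 markers. Ifng, the cytokine of ILC1 and NK cells, was in 8.57% of Ncr1-positive and 2.71% of Ncr1-negative cells of the small intestine, and in 14.7% and 2.06% in the colon. Within Il22-high cells Klrd1 was in 2 of 290 Ncr1-positive cells of the small intestine (0.690%) and 1 of 73 of the colon (1.37%), close to the 0.522% and 1.92% of Ncr1-negative cells. Within Tbx21-positive cells it was in 7 of 133 Ncr1-positive cells of the small intestine (5.26%, 2.14 to 10.5) and 18 of 58 of the colon (31.0%, 19.5 to 44.5). The intervals of the tissues did not overlap in the Tbx21-positive cells, and the Il22-high shares rested on 2 cells and 1 cell.

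**Figure D4:**
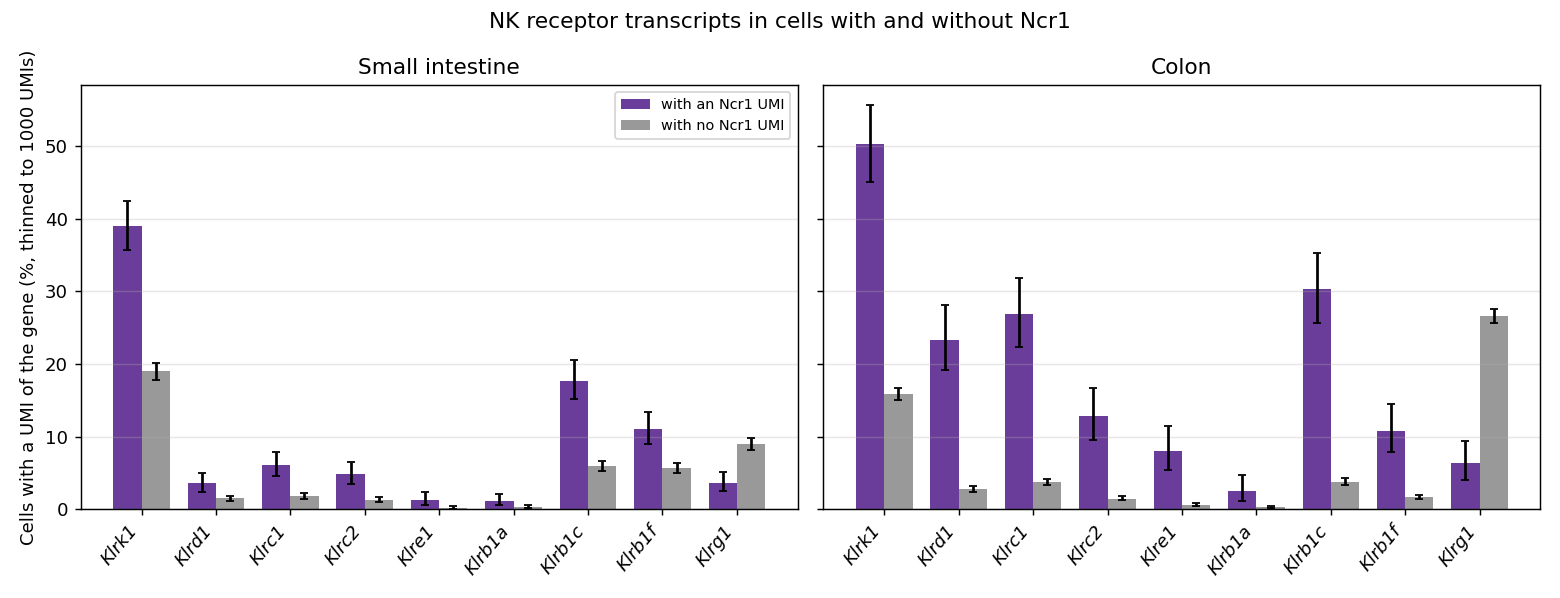
Share of cells (%) with a UMI of each gene among cells with an Ncr1 UMI (purple) and with none (grey), after thinning to 1000 UMIs per cell, for the small intestine (left) and the colon (right); bars carry 95% Clopper-Pearson intervals. Klrd1 reaches 3.57% of Ncr1-positive cells in small intestine cells, against 23.3% in colon cells, and Klrg1 is the gene lower in Ncr1-positive cells in both.

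Klrg1-positive cells were set against Klrg1-negative cells. Ncr1 was in 6.92% of 448 Klrg1-positive and 16.0% of 5042 Klrg1-negative cells of the small intestine, and in 1.19% of 1933 and 6.00% of 5616 in the colon. Within Gata3-positive cells, Klrk1 was in 3.27% of Klrg1-positive and 16.0% of Klrg1-negative cells of the small intestine, and in 4.77% and 12.3% in the colon. Within Il22-high cells of the small intestine the Klrk1 shares were 28.9% (16.4 to 44.3) and 22.2% (20.4 to 24.1), with overlapping intervals.

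Klrd1 was set beside its NKG2 partner chains. Of Klrd1-positive cells, 36.0% of 100 small intestine cells and 45.6% of 285 colon cells had a UMI of Klrc1 or Klrc2, against 3.38% and 4.49% of Klrd1-negative cells. Among Cd3e-positive cells the share was 12.9% (4 of 31 cells, 3.63 to 29.8) in small intestine cells, against 20.4% (10 of 49, 10.2 to 34.3) in colon cells. In cells with no marker it was 57.5% (40.9 to 73.0) and 55.8% (47.1 to 64.2). Klrd1-positive cells of the small intestine were Cd3e-positive in 31.0%, against 17.2% in the colon, beside 7.38% and 18.4% of Klrd1-negative cells. Gzma was in 18.0% of Klrd1-positive cells of the small intestine, against 0.351% in the colon, beside 0.482% and 0.0413% of Klrd1-negative cells.

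Counted per cell after thinning, 14.7% of small intestine cells and 10.7% of colon cells had at least 2 of the 10 genes. Cells positive for Tbx21 alone had at least 2 in 42.1% of 183 small intestine cells and 65.1% of 109 colon cells, and 4 or more in 4.92% and 24.8%. Cells positive for Il22 alone had at least 2 in 10.7% and 9.12%, and cells positive for Gata3 alone in 7.31% and 5.17%. Cells positive for Gata3 and Tbx21 and no other marker had at least 2 in 47.1% of 68 small intestine cells and 37.7% of 61 colon cells. Of these cells, 7.35% and 18.0% were among those with the highest doublet scores, against 2.19% and 5.50% for Tbx21 alone. The part of doublets in these shares was not tested. Sets with Tbx21 thus held the highest shares in both tissues. Cells with no marker had at least 2 in 21.0% and 20.3%, and up to 7 of the 10 genes were seen in a single cell of either library.

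**Figure D5:**
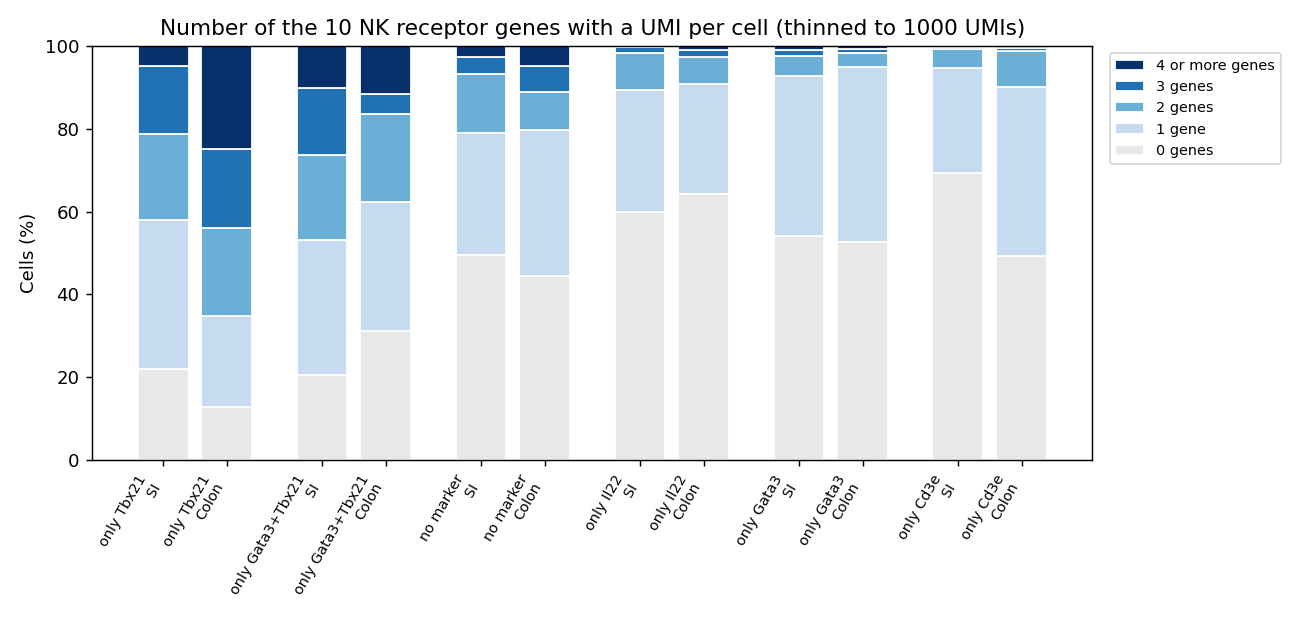
Share of cells (%) by the number of the 10 NK receptor genes with a UMI after thinning to 1000 UMIs, for cells positive for the markers named and no other, small intestine left of colon in each pair. Cells positive for Tbx21 alone have 4 or more genes in 4.92% in small intestine cells, against 24.8% in colon cells.

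Other genes were ranked by how their levels ran in parallel with each receptor over 19 sets of cells (9 of the small intestine and 10 of the colon, by exclusive marker combination). Pearson's r of log2(CPM + 10) is given as a description, since sets of a library share depth and free RNA. Ncr1 ran with Olfm1 (0.92), the receptor gene Cd244 (0.90) and Avil (0.89), and Klrb1f with the receptor gene Klrb1b (0.95). Klrd1 ran with the chemokine gene Ccl5 (0.93) and Klrc2 with the chemokine gene Xcl1 (0.96), and Klrb1c with Pglyrp1 (0.91) and Ifng (0.90). Klrc1 ran with Tyrobp (0.89), which encodes the DAP12 adaptor, and Klrk1 with Rgs1 (0.89). Klre1 ran with Xcl1 (0.87) and Klrb1a with Sulf2 (0.86), both on few UMIs of the receptor. Klrg1 ran with Slc7a8 and Ptgir (0.94 each) and Ptpn13 (0.93), and its r with the other 9 receptors lay between -0.38 and 0.09. Ncr1 and Klrd1 had an r of 0.11 with each other.

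The other genes of the pathway were counted in lists. Of 29 other NK receptor genes, 19 had enough UMIs over all cells, and 10 were called higher in the small intestine and 2 lower, against 8.92% and 5.42% of all genes, with a median log2 ratio of 1.13 against 0.20 for all genes. Klrb1b, the inhibitory NKR-P1B receptor, had 513 CPM in the small intestine, against 195 CPM in the colon (2.63, 2.53 to 2.73), Cd96 147 and 65.2 CPM, Cd160 142 and 40.4 CPM, and Cd226 58.8 and 25.2 CPM. In Tbx21-positive cells 10 of 15 counted were higher than in Tbx21-negative cells of the colon and 0 lower, against 4.44% and 9.92% of all genes. In the small intestine 5 of 13 were higher and 1 lower, against 2.79% and 8.19%. The inhibitory Ly49 genes of the Klra family were near absent, with 76 UMIs over both libraries for the highest, Klra7.

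Adaptors that carry the signal showed both directions. Of 19 listed, 18 were counted, and 5 were higher in the small intestine and 3 lower over all cells, where 8.92% and 5.42% of all genes were called. Fcer1g, an adaptor gene of the list, had 1068 CPM in the small intestine, against 360 CPM in the colon (2.97, 2.89 to 3.05). Cd247, another adaptor gene of the list, had the opposite order, at 27.5 and 56.1 CPM (0.490, 0.437 to 0.548). Tyrobp, the adaptor of the activating NKG2C receptor, had 47.3 CPM in the small intestine, against 106 CPM in the colon (0.446, 0.410 to 0.485). That was the order of Klrd1 and Klrc1, whereas Klrc2, the NKG2C chain itself, had a ratio of 0.983 (0.851 to 1.13). Hcst, which encodes the DAP10 adaptor of NKG2D, had 515 CPM in the small intestine, against 517 CPM in the colon (0.995, 0.967 to 1.02), and Zap70 and Lat were under 2-fold apart, at ratios of 1.44 and 0.809.

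Ligand genes and NK cell transcription factors were counted in the same way, with the same 8.92% and 5.42% of all genes called. Of 17 ligand genes 8 were counted, with 1 higher and 2 lower in the small intestine. H2-T23, which encodes Qa-1, the ligand of the CD94 receptors, had 180 CPM in the small intestine, against 106 CPM in the colon (1.70, 1.61 to 1.80), and Clec2i, a Clr gene, 52.4 and 30.3 CPM. The class I genes H2-D1 and H2-K1 had ratios of 0.961 and 0.985. Of 10 transcription factor genes 8 were counted with the marker genes left out, and 1 was higher and 0 lower in the small intestine: Irf8, at 67.8 CPM in the small intestine, against 31.3 CPM in the colon, named after its value was seen. Runx3 had 246 and 157 CPM, Nfil3 214 and 154 CPM, Ets1 511 and 579 CPM and Id2 1419 and 1381 CPM in the same order.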

How the data were processed

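The deposited count table and the unfiltered matrices hold UMI counts made by the authors with Cell Ranger 3.0.2 on mm10, per the submitters' processing notes. The treatment of reads shared by several genes and the rule by which the authors chose cells are not given in the sources used here. The table's cells were used as they stand, and comparison with the matrices found 0 values that differed. The libraries shared 60 barcodes, against 56.2 expected by chance. UMIs were summed per cell set and scaled to CPM, with exact Poisson intervals for levels, exact conditional binomial intervals for ratios and Clopper-Pearson intervals for shares (scipy 1.17.1). Doublets were kept and scored with Scrublet (scanpy 1.11.5). The automatic call marked 0.109% of small intestine cells, so it had not worked there, and the top-scoring 241 small intestine and 456 colon cells were left out in an alternative. Free RNA was estimated at 5.36% of small intestine and 8.25% of colon UMIs in cells. The step that gives ratios and intervals was tested on simulated data. The 10 genes, the lists and the markers were chosen with earlier results of these data known. For each receptor the 3 genes with the highest r were taken, and up to 4 genes of each list by UMIs, others being named after their values were seen. Coordinates are from GENCODE vM21 on mm10, counted from 1.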

Additional observations from a re-analysis of the deposited data

Results flagged for a closer look

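For Klrd1, the CD94 chain, the ratio of the small intestine over the colon lay on opposite sides of 1 in different cell groups. The log2 ratio differed by -3.14 between Il22-high and Cd3e-positive cells (Il22-high minus Cd3e-positive). It differed by -3.32 between Tbx21-positive and Cd3e-positive cells (Tbx21-positive minus Cd3e-positive). These differences were not tested, since each group had 1 library per tissue. Tbx21-positive cells had 62.1 CPM in small intestine cells, against 235 CPM in colon cells, and Cd3e-positive cells 133 and 50.5 CPM.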

How the results depend on the processing

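No paired analysis was possible because each tissue had 1 library and the labels give no shared replicate numbers. Counts of genes at least 2-fold apart stayed within 1.5 times under 144 of 157 alternatives, among them the leaving out of cells of 50 or more B and plasma cell marker UMIs, which was chosen after seeing the data and moved 0 counts that far. With 1.5-fold in place of 2-fold, 8 genes were apart between tissues over all cells (4 at 2-fold), 6 in Gata3-positive cells (3), 8 between Gata3-positive and Gata3-negative small intestine cells (3) and 8 between Cd3e-positive and Cd3e-negative small intestine cells (5). Between tissues in Tbx21-positive cells the count was 5, and 3 with a median-ratio size factor, with cells weighted the same, with higher marker thresholds and with cells positive for 1 marker. Between Gata3-positive and Gata3-negative small intestine cells it was 1 with cells weighted the same, 10 with higher marker thresholds, 5 with groups called on thinned counts and 6 with cells positive for 1 marker. Between Tbx21-positive and Tbx21-negative small intestine cells it was 9, and 5 with higher marker thresholds. The causes were not tested. Of 1170 log2 ratios under the alternatives 198 moved beyond the counting interval, and 0 called ones changed sign. Ncr1 in Tbx21-positive cells ranged between 0.29 and 1.08 (log2, small intestine over colon), at least 2-fold in 4 of 9 alternatives, and Klrd1 there between -2.98 and -1.93, at least 2-fold in all 9. Thinning to 2000 UMIs left out 971 small intestine and 1093 colon cells. Rare genes (Klrb1a, Klre1) are limited by depth.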
